A study of Sus scrofa with 6 samples.

Results

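The genes described are those that the nucleus supplies to the mitochondrial respiratory chain and its assembly. They were matched by symbol, as the genes that start with NDUF, UQCR or ATP5 or with COX and a digit from 4 to 8. SDHA to SDHD, CYCS and CYC1 were also taken where listed. Earlier results of these data were known when the members were chosen. The rule found 35 of the 4122 genes listed, all with an entry of the same symbol in the RefSeq table for Sscrofa11.1. Of these, 33 encode subunits of complexes I to V or cytochrome c. The other members are NDUFAF3, an assembly factor of complex I, and NDUFA4L2, a relative of NDUFA4.

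The libraries came from lymph node, spleen and thymus of pigs aged 3 months, either with both alleles of RAG2 knocked out (RAG2bKO) or littermates with the wild-type gene. The series title speaks of immunodeficient animals that lack a single amino acid. Each tissue of each genotype is represented by 1 library, 6 in all. The labels do not say whether the libraries of 1 genotype came from 1 animal or pooled ones, or where in the body the lymph node lay. No difference between genotypes has a replicate check, and none is tested here.

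The respiratory chain passes electrons from NADH through complex I, or from succinate through complex II, to ubiquinone, then through complex III and cytochrome c to complex IV, which reduces oxygen. Complexes I, III and IV pump protons across the inner mitochondrial membrane, and complex V, the ATP synthase, uses their return to make ATP. Mitochondrial DNA encodes a few core subunits and nuclear genes encode the rest. Lymphocytes enlarge their mitochondria and raise oxidative metabolism when they are activated and divide. The mitochondrially encoded subunits were not analysed here.

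Levels are given as FPKM, which divides a gene's fragments by the length of its transcript and by the library's depth. Where 2 values are joined, the wild-type library comes first. Differences between genotypes are log2 ratios, knockout over wild type, taken with 1 FPKM added to both values. A gene counts as called higher or lower from a ratio of 1 on that scale, which is 2-fold. A gene is measured in a tissue where 1 of its 2 libraries reached 1 FPKM. A fragment ratio is knockout over wild type in scaled fragment counts, followed by its 95% Clopper-Pearson interval, which covers counting error only. The libraries held 1922563 to 2541724 fragments on listed genes. RAG2 itself stood at 606 and 1072 FPKM in thymus, and a transcript level does not check the genotype labels. RAG-1, from the list of thymocyte genes, stood at 3435 and 7134 FPKM in thymus and at 1.27 and 10.1 FPKM in lymph node. The genes of that list were divided in thymus, where 2 of 6 were called higher and 3 lower. Those lower were CD8A at 534 and 11.4 FPKM, CD8B at 1118 and 41.3 FPKM and CD4 at 412 and 19.5 FPKM. Of the markers for splenic red pulp and capsule only 1 was listed, at 0 fragments in every library, so the spleen label was not checked by them.

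The respiratory chain genes were among the more abundant genes of every library. Their median FPKM lay at a rank between 83.9 and 89.3% of the genes at 1 FPKM or more in that library. In wild-type lymph node 0.791% (0.779 to 0.804) of the fragments on listed genes fell on them, with exact binomial 95% intervals here and below. The knockout lymph node had 0.632% (0.621 to 0.643). In spleen the shares were 0.737% (0.725 to 0.749) in wild type and 0.734% (0.723 to 0.744) in the knockout, intervals that overlap. In thymus they were 1.10% (1.09 to 1.11) and 0.923% (0.911 to 0.935). The thymus thus held the largest share and the knockout lymph node the smallest of the 6 libraries. In bulk tissue fewer cells of a type and less RNA per cell cannot be told apart.

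**Figure D1:**
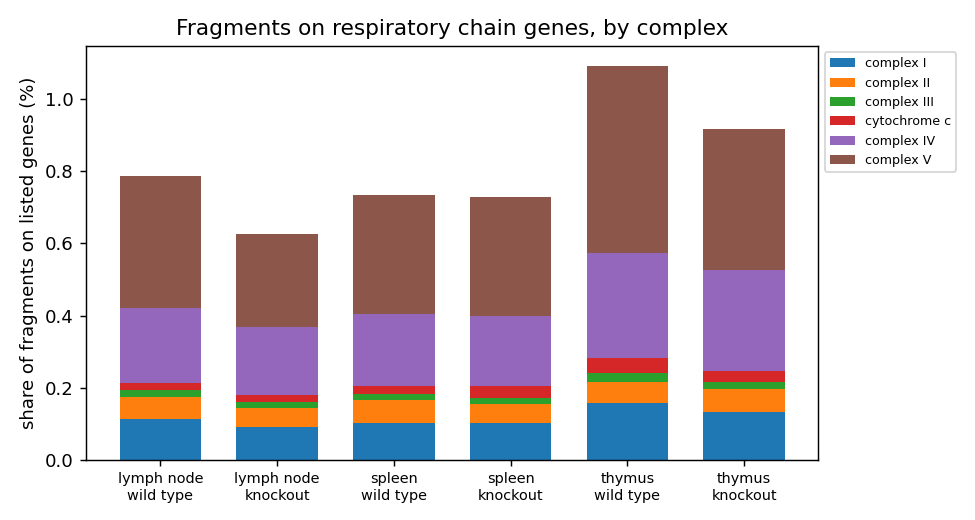
Share of the fragments on listed genes (y axis, percent) that fell on the respiratory chain genes in each of the 6 libraries (x axis), stacked by complex without NDUFAF3, with 1 library per bar. The wild-type thymus bar is the tallest and the knockout lymph node bar the shortest, and complex V makes up the largest part of every bar.

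Within the chain, complex V took the largest share of fragments, 0.258 to 0.521% of those on listed genes. A large part of that was ATP5A1 (chromosome 1, 95738789 to 95750835), the alpha subunit of the catalytic head, with 21.1 to 26.2% of all fragments on the members in a library. Per length the order was different. By FPKM summed over the 6 libraries the most abundant members were COX7C, COX6C and ATP5A1, closely followed by ATP5H. The order differed between libraries, and in wild-type thymus ATP5H was the highest at 1697 FPKM. COX7C stood at 1162 and 1244 FPKM in lymph node, 1273 and 1233 FPKM in spleen and 1577 and 2223 FPKM in thymus. COX6C stood at 1012 and 787 FPKM in lymph node, 962 and 557 FPKM in spleen and 1592 and 1562 FPKM in thymus. Levels of different genes are less sure than levels of 1 gene across libraries. In wild-type lymph node 1 fragment was worth 0.134 FPKM for ATP5L and 0.182 FPKM for ATP5E but 5.72 FPKM for UQCRB and 6.06 FPKM for ATP5H, all of them short proteins. The transcript models behind these values were not given.

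A few members were not detected or rested on single fragments. NDUFA4L2 had 0 fragments in all 6 libraries, which allows up to 3 fragments in each. COX8H, the heart isoform of subunit VIII, had 1 fragment in wild-type spleen and 0 in the other libraries. NDUFC2, a complex I subunit, had 1 and 1 fragments in lymph node, 0 and 0 in spleen and 0 and 1 in thymus, and never reached 1 FPKM. The remaining 32 members were measured in all 3 tissues.

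Wild-type thymus had the highest level of most members. Of 33 members measured in a wild-type library, 30 had their highest FPKM there, 2 in spleen and 1 in lymph node. The 2 in spleen were SDHD and COX8H, the latter on 1 fragment. Of all measured genes 49.2% had theirs in thymus. The tissue tables were normalised separately, so this order was also read from fragments divided by the library's total on listed genes, where 28 of 33 members were highest in thymus beside 40% of all measured genes. On that scale the median log2 ratio of wild-type thymus over wild-type lymph node was 0.44 for the members and -0.0642 for all measured genes. Spleen and lymph node of the wild type were close, with a median of -0.0766 for spleen over lymph node. In the knockout 25 of 32 members were still highest in thymus on that scale, beside 39.5% of all measured genes. By FPKM it was 27 of 32, beside 45.1%. Among the exceptions was COX7A1, lowest in the thymus of either genotype, and in the knockout CYCS and ATP5G1 had their highest FPKM in spleen.

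**Figure D2:**
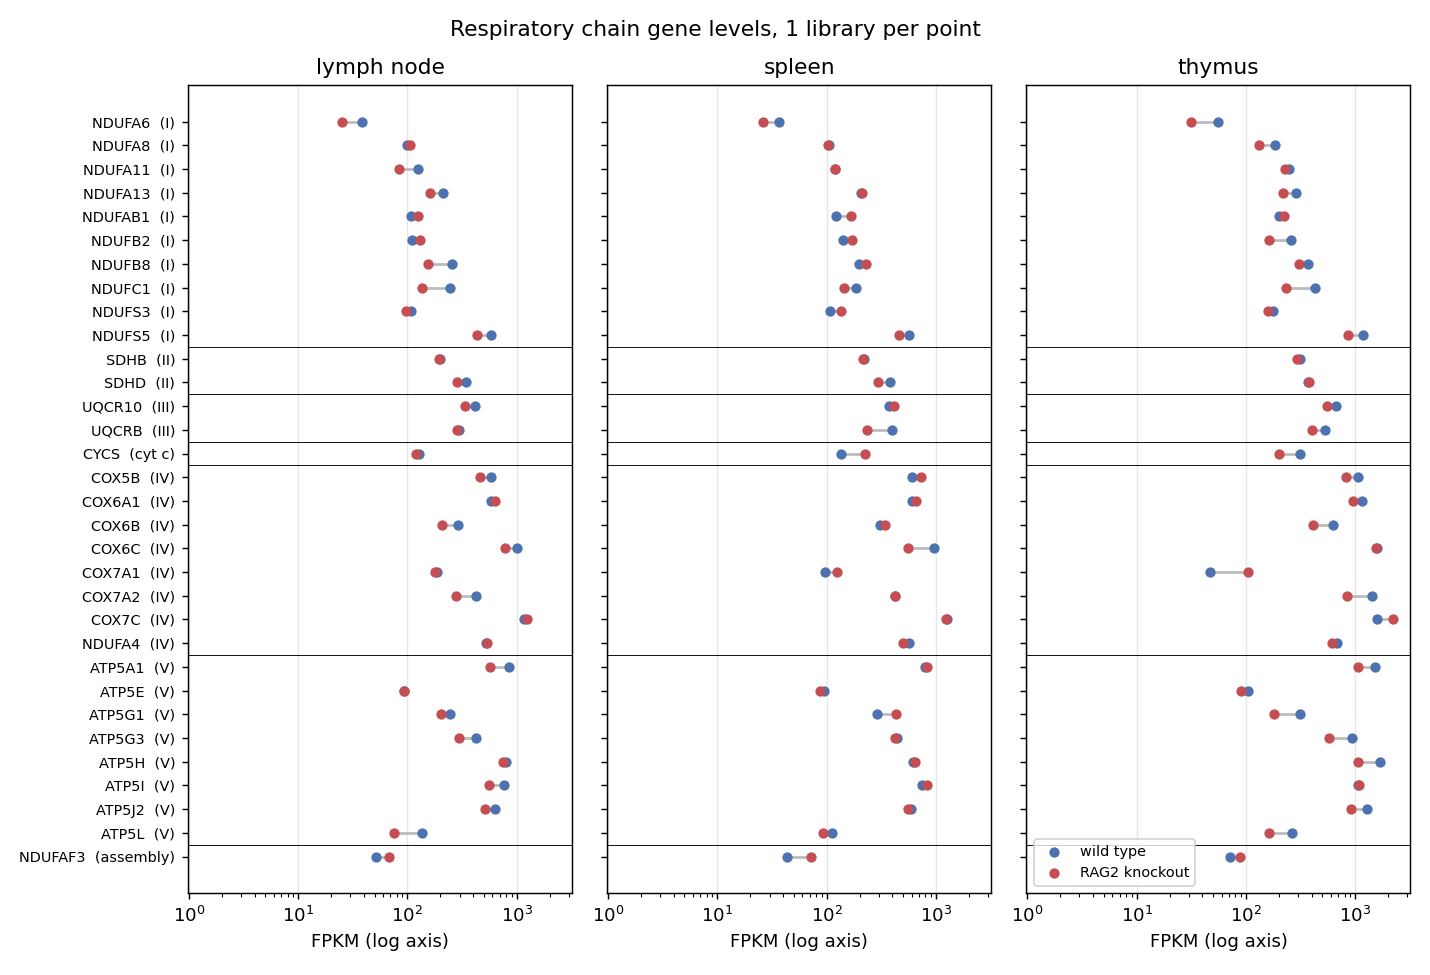
FPKM (x axis, log scale) of the 32 members measured in all 3 tissues (y axis, ordered by complex), with wild type in blue and knockout in red and a grey line between them, 1 library per point. Most red points lie left of the blue ones in lymph node and thymus, and COX7A1 in thymus is the pair with red farthest to the right of blue.

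The comparison of genotypes asked what the loss of RAG2 changed in each lymphoid tissue. Few of the respiratory chain genes differed by 2-fold or more. In lymph node 0 of 32 measured members were called higher and 0 lower, while 15.3% of all measured genes were called higher and 10.3% lower. In spleen 0 of 33 were called higher and 1 lower, beside 8.88% and 10% of all measured genes. The spleen call is COX8H, on 1 and 0 fragments, and gets no fold. In thymus 1 of 32, COX7A1, was called higher and 0 lower, beside 15.2% and 10.9%. The members are abundant, and abundant genes had fewer calls. Of measured genes with a mean of at least 100 FPKM, a comparison chosen after seeing the data, 11.1% were called higher and 7.1% lower in lymph node, 6.75% and 5.14% in spleen and 7.94% and 7.18% in thymus.

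Below 2-fold, the members shared a direction in lymph node and thymus. Their median log2 ratio was -0.29 in lymph node, where all measured genes had -0.00456, and 25 of 32 were lower in the knockout by any amount, beside 50.4% of all measured genes. In thymus the median was -0.38, where all measured genes had -4.72e-05, and 26 of 32 were lower, beside 50%. In spleen the median was -0.00861, where all measured genes had -0.0159, and 17 of 33 were lower, beside 51.0%. Abundant genes in general leaned the same way in part. Of those with a mean of at least 100 FPKM, 56.5% were lower in lymph node and 63.7% in thymus, and 48.4% in spleen. The lymph node and thymus medians of those abundant genes were -0.0923 and -0.15.

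The interquartile range of the members' log2 ratios was 0.468 in lymph node, 0.376 in spleen and 0.529 in thymus, where all measured genes had 1.0, 0.805 and 0.972. Among genes with a mean of at least 100 FPKM it was 0.840, 0.675 and 0.616, so in thymus the members were close to abundant genes in general. With a threshold of 1.5-fold, 5 of 32 members were lower in lymph node, beside a background of 20.3% of all measured genes, and 0 were higher, beside 23.1%. The lower ones were the complex I subunits NDUFC1, NDUFB8 and NDUFA6, with COX7A2 and ATP5L. In thymus 10 of 32 were lower, beside 18.6% of all measured genes, and 1 was higher, beside 24.0%. The 10 were NDUFA6, NDUFB2, NDUFC1, CYCS, COX6B, COX7A2, ATP5G1, ATP5G3, ATP5H and ATP5L. In spleen 2 of 33, CYCS and NDUFAF3, were higher and 3, UQCRB, COX6C and COX8H, lower, beside 17.5% and 19.4%. For genes with a mean of at least 100 FPKM the shares at 1.5-fold were 17.5% higher and 20.7% lower in lymph node, 15.8% and 13.3% in spleen and 12.1% and 17.3% in thymus.

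The counting interval of the fragment ratio lay below 1 for 18 of 32 members in lymph node and 20 of 32 in thymus, where it did so for 30.6% and 31.0% of all measured genes. It lay above 1 for 2 and 2 members there, beside 31.0% and 31.6%. In spleen it lay below 1 for 5 of 33 members and above 1 for 9, beside 28.9% and 28.6% of all measured genes. Such an interval is narrower for a gene with more fragments. Among genes with a mean of at least 100 FPKM it lay below 1 for 43.1% and above 1 for 32.9% in lymph node, 33.2% and 39.3% in spleen and 48.3% and 25.3% in thymus.

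**Figure D3:**
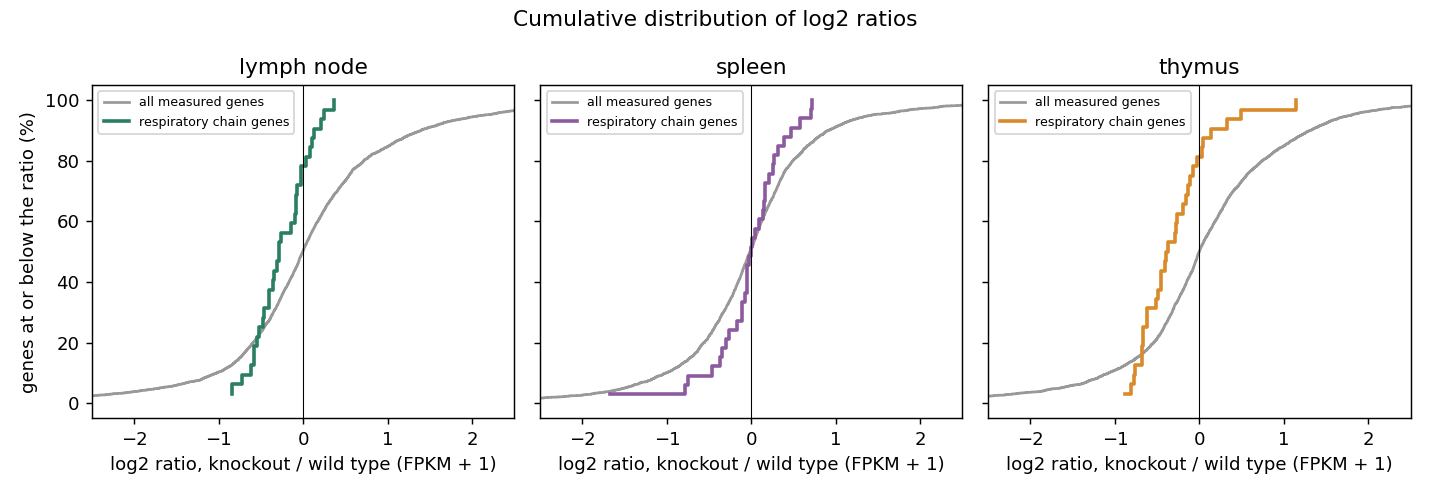
Cumulative share of genes (y axis, percent) at or below each log2 ratio of knockout over wild type (x axis, FPKM + 1), in colour for the respiratory chain genes and in grey for all measured genes, 1 panel per tissue. The coloured curve is steeper than the grey one in every panel and lies to its left around 0 in lymph node and thymus, with medians of -0.29 and -0.38. The x axis ends at 2.5 on either side.

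Summed over the members, the fragment ratio was 0.804 (0.785 to 0.823) in lymph node, 1.03 (1.01 to 1.05) in spleen and 0.774 (0.761 to 0.788) in thymus. For all measured genes the same ratio was 1.01, 1.03 and 0.921. In thymus the total over all measured genes was also below 1. Without ATP5A1, the member with the most fragments, the ratios were 0.849, 1.02 and 0.801. FPKM and fragments disagreed in sign for a few members near equality. These were UQCRB and ATP5H in lymph node and NDUFA11, COX7A2 and COX7C in spleen. By fragments 23 of 32 members were lower in lymph node, 13 in spleen and 26 in thymus. Scaled to the library totals, 23 were lower in lymph node, 17 in spleen and 23 in thymus. For all genes with at least 10 fragments in both libraries, the median log2 fragment ratio was -0.0141, 0.0037 and -0.000232 in those tissues. Scaled to the totals it was -0.0226, -0.0432 and 0.119.

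Complex I takes electrons from NADH and is the largest complex of the chain, with most of its subunits encoded in the nucleus. Its 10 measured subunits had a summed fragment ratio of 0.794 (0.746 to 0.846) in lymph node, 1.03 (0.970 to 1.09) in spleen and 0.770 (0.734 to 0.806) in thymus. NDUFC1 (chromosome 8, 87695273 to 87700024), a subunit of the membrane arm, was the lowest of them in both lymph node and thymus. It stood at 247 and 137 FPKM in lymph node, 185 and 145 FPKM in spleen and 426 and 232 FPKM in thymus. The knockout library was the lower of each pair, with fragment ratios of 0.571 (0.440 to 0.736), 0.816 (0.631 to 1.05) and 0.544 (0.447 to 0.660), of which the spleen interval includes equality. NDUFA6 (chromosome 5, 6562074 to 6567321), an accessory subunit with the LYR motif found in iron-sulphur and assembly proteins, stood at 38 and 25 FPKM in lymph node, 36.6 and 26.1 FPKM in spleen and 55.8 and 31.3 FPKM in thymus. It was the least abundant measured subunit of the complex and lower in each knockout library, with a fragment ratio of 0.561 (0.411 to 0.761) in thymus and of 0.723 (0.511 to 1.02) in spleen.

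Other complex I subunits went the other way or split between tissues. NDUFAB1, the acyl carrier protein that also serves mitochondrial fatty acid synthesis, stood at 108 and 126 FPKM in lymph node, 121 and 167 FPKM in spleen and 202 and 223 FPKM in thymus. It was the higher in each knockout library, with a fragment ratio whose interval excluded 1 in spleen, 1.43 (1.11 to 1.84), and not in lymph node, 1.19 (0.893 to 1.58), or thymus, 1.10 (0.896 to 1.35). NDUFB2, a membrane-arm subunit, stood at 111 and 131 FPKM in lymph node, 141 and 170.3 FPKM in spleen and 259 and 163 FPKM in thymus. Its fragment ratio was 1.21 (0.900 to 1.64) in lymph node and 0.630 (0.501 to 0.790) in thymus. NDUFB8, whose protein is widely used as a gauge of complex I assembly, stood at 253 and 153 FPKM in lymph node, 199.8 and 231 FPKM in spleen and 372 and 307 FPKM in thymus. Its difference was largest in lymph node, at a log2 ratio of -0.72. NDUFS3, the only core subunit among the members, was within 0.320 log2 units of equality in each tissue, with 107 and 96.4 FPKM in lymph node, 107 and 134 FPKM in spleen and 177 and 161 FPKM in thymus. NDUFS5, the most abundant subunit of complex I by FPKM, had log2 ratios of -0.41, -0.30 and -0.45 in lymph node, spleen and thymus. The last 3 subunits, NDUFA8, NDUFA11 and NDUFA13, had log2 ratios from -0.55 (NDUFA11, lymph node) to 0.0798 (NDUFA8, lymph node).

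Complex II, succinate dehydrogenase, is shared with the citric acid cycle and lies wholly in nuclear genes. SDHB, its iron-sulphur subunit, stood at 198 and 195 FPKM in lymph node, 222 and 214 FPKM in spleen and 309.9 and 294 FPKM in thymus, nearly level in each pair. SDHD, a membrane anchor, stood at 344 and 286 FPKM in lymph node, 382 and 294 FPKM in spleen and 371 and 380.1 FPKM in thymus. It was lower in the knockout spleen, with a fragment ratio of 0.779 (0.707 to 0.859), and level in thymus, 1.02 (0.933 to 1.13). The summed ratio of the complex in thymus was 0.993 (0.923 to 1.07), the only complex there whose interval included 1.

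Complex III passes electrons from ubiquinol to cytochrome c and had 2 members, both small accessory subunits. UQCR10 stood at 412 and 338 FPKM in lymph node, 370.1 and 414 FPKM in spleen and 669 and 547 FPKM in thymus. UQCRB, which sits near the ubiquinone site, stood at 297 and 283 FPKM in lymph node, 396 and 235 FPKM in spleen and 525 and 399 FPKM in thymus, on only 52 to 95 fragments per library. Its lower level in knockout spleen had a fragment ratio of 0.661 (0.454 to 0.956).

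CYCS (chromosome 18, 47169921 to 47172212) encodes cytochrome c, the mobile carrier between complexes III and IV and, once released from mitochondria, a trigger of apoptosis. It stood at 128 and 120.1 FPKM in lymph node, 137 and 226 FPKM in spleen and 312 and 203 FPKM in thymus. The knockout library was higher in spleen, with a fragment ratio of 1.67 (1.48 to 1.87), and lower in thymus, 0.650 (0.589 to 0.715), and the lymph nodes were level within counting error, 0.94 (0.818 to 1.08). CYC1 was not among the genes analysed here.

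Complex IV, cytochrome c oxidase, reduces oxygen to water, and several of its small subunits exist as tissue isoforms. Its measured subunits had summed fragment ratios of 0.929 (0.889 to 0.972) in lymph node, 1.01 (0.964 to 1.05) in spleen and 0.889 (0.860 to 0.919) in thymus, nearer to 1 than those of complex V in lymph node and thymus. Within the complex the subunits diverged. COX7C had a fragment ratio of 1.41 (1.31 to 1.51) in thymus, against the direction of most members, and of 1.10 (1.0 to 1.20) and 1.0 (0.920 to 1.09) in lymph node and spleen. COX6C, second in summed FPKM, had a ratio of 0.604 (0.532 to 0.684) in spleen, the lowest of any well-counted member there, and of 0.980 (0.898 to 1.07) in thymus.

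COX5B, on the matrix side of the enzyme, had log2 ratios of -0.35, 0.26 and -0.37 in lymph node, spleen and thymus. COX6B stood at 292 and 208 FPKM in lymph node, 308 and 345 FPKM in spleen and 626 and 408 FPKM in thymus, with log2 ratios of -0.48, 0.17 and -0.62. COX6A1, the ubiquitous isoform of subunit VIa, stood at 579.6 and 635 FPKM in lymph node, 598 and 663 FPKM in spleen and 1146 and 951 FPKM in thymus, lower in the knockout only in thymus. NDUFA4, first described as part of complex I and now counted with complex IV, stood at 526 and 537 FPKM in lymph node, 564 and 503 FPKM in spleen and 682 and 610.3 FPKM in thymus. Its log2 ratios were 0.03, -0.16 and -0.16, and a pseudogene of the same symbol is listed in RefSeq.

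COX7A1 (chromosome 6, 45519225 to 45520721), the isoform of subunit VIIa typical of heart, muscle and brown fat, was the only member called higher. It stood at 188 and 177 FPKM in lymph node, 96 and 125 FPKM in spleen and 47 and 105 FPKM in thymus. In thymus the knockout library had 48 fragments against 21, a ratio of 2.23 (1.31 to 3.92) and a log2 ratio of 1.14. In spleen the ratio was 1.39 (0.930 to 2.09) and in lymph node 0.980 (0.713 to 1.35), both including equality. COX7A2 (chromosome 1, 90696746 to 90703407), the ubiquitous isoform, stood at 424 and 276 FPKM in lymph node, 425 and 418 FPKM in spleen and 1441 and 845 FPKM in thymus. It was lower in knockout lymph node and thymus, with ratios of 0.665 (0.564 to 0.784) and 0.586 (0.535 to 0.641).

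Of the fragments on both isoforms, COX7A1 took 1.61% (1.0 to 2.45) in wild-type and 5.88% (4.36 to 7.71) in knockout thymus, intervals that do not overlap. In lymph node it took 18.3% (14.8 to 22.3) and 24.9% (20.3 to 29.8), and in spleen 10.2% (7.45 to 13.5) and 13.4% (10.6 to 16.7), with overlapping intervals in both tissues. The share was higher in the knockout library of each pair, and lymph node was above spleen and spleen above thymus in both genotypes. Fragment shares are not corrected for transcript length. By FPKM the COX7A1 share was larger, at 3.16% and 11.1% in thymus, 30.8% and 39.1% in lymph node and 18.4% and 23.1% in spleen.

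Markers of fat and muscle, tissues that express COX7A1, also differed in thymus. Of all measured genes 15.2% were called higher and 10.9% lower in thymus. Of the adipocyte list 8 of 9 measured genes were called higher and 0 lower there, its summed level was 505 and 1855 FPKM, and none of its listed genes was at 0. Of the striated muscle list 0 of 12 were called higher and 8 lower, the sums were 98.2 and 60.3 FPKM, and MYH2, TNNT3, CKM and MB had 0 fragments in both libraries. The 8 lower genes had 9 to 81 fragments in wild type. MYH1, a fast myosin of skeletal muscle and the best counted gene of the list in thymus, went the other way, at 23.2 and 45.6 FPKM on 301 and 607 fragments, a ratio of 1.97 (1.71 to 2.27). It was singled out after its values were seen. Of the smooth muscle list 2 of 6 were called higher and 0 lower, with sums of 113 and 161 FPKM. In lymph node the adipocyte sums were 163 and 9718 FPKM with all 10 measured genes called higher, while COX7A1 was level. The part of these cells in the COX7A1 values was not tested.

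**Figure D4:**
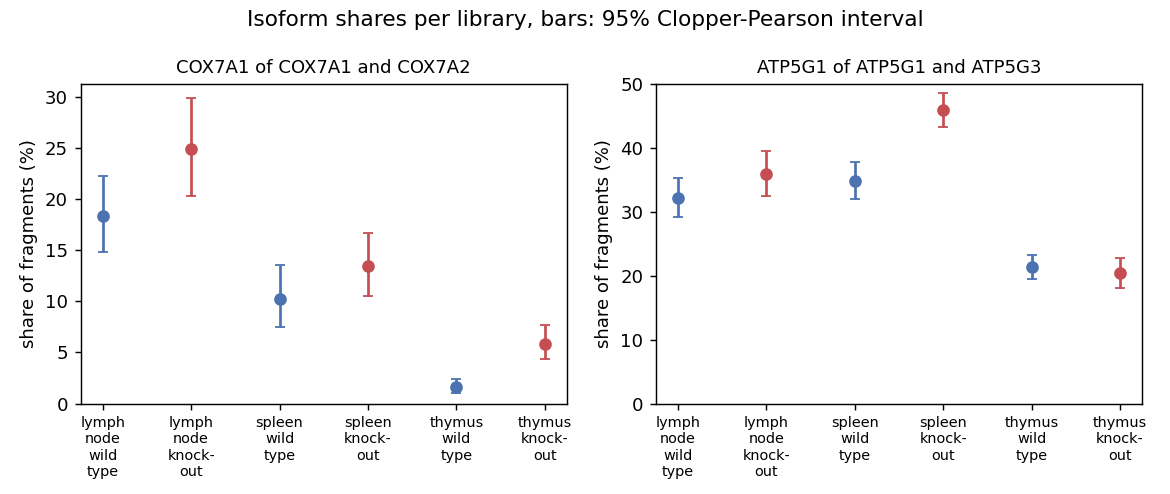
Share of fragments (y axis, percent) taken by COX7A1 among COX7A1 and COX7A2 (left) and by ATP5G1 among ATP5G1 and ATP5G3 (right) in each of the 6 libraries, with wild type in blue and knockout in red and bars for the 95% Clopper-Pearson interval. The COX7A1 share is lowest in thymus, and the ATP5G1 share is highest in the knockout spleen.

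Complex V, the ATP synthase, had the lowest summed fragment ratio of any complex in lymph node, 0.705 (0.680 to 0.731), and in thymus 0.692 (0.674 to 0.710), with 1.03 (0.996 to 1.06) in spleen. Single cytochrome c was lower still in thymus. By median log2 ratio, complex I was below complex V in lymph node, at -0.41 and -0.39. In thymus complex V was the lower by median, at -0.59 against -0.43. The sums lean on ATP5A1, which had 3840 and 2693 of the 7062 and 5207 complex V fragments in lymph node. ATP5A1 stood at 844 and 564 FPKM in lymph node, 803 and 831 FPKM in spleen and 1529.7 and 1069 FPKM in thymus. Its high counts make its ratios the most precise, at 0.671 (0.638 to 0.705), 1.04 (0.996 to 1.09) and 0.698 (0.674 to 0.724). ATP5L (chromosome 9, 45706449 to 45716541), subunit g of the membrane part, stood at 136 and 75.3 FPKM in lymph node, 112 and 93.2 FPKM in spleen and 262 and 164 FPKM in thymus. It was the lowest member of the complex in lymph node and spleen, with log2 ratios of -0.84 and -0.26, and stood at -0.67 in thymus.

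The rotor ring of the synthase is built from subunit c, whose identical mature protein is encoded by several genes, here ATP5G1 and ATP5G3. ATP5G1 (chromosome 12, 25110540 to 25113481) stood at 247 and 202 FPKM in lymph node, 289.6 and 434 FPKM in spleen and 309.7 and 182 FPKM in thymus. Its fragment ratio was 1.53 (1.35 to 1.74) in spleen and 0.587 (0.498 to 0.690) in thymus, so the knockout library was higher in one organ and lower in the other. ATP5G3 stood at 428 and 296 FPKM in lymph node, 444 and 421 FPKM in spleen and 933 and 581 FPKM in thymus, level in spleen and, in the other 2 tissues, lower in the knockout library. The ATP5G1 share of the fragments on both genes was 34.8% (31.9 to 37.8) in wild-type and 45.9% (43.3 to 48.5) in knockout spleen, intervals that do not overlap. In thymus it was 21.4% (19.5 to 23.3) and 20.4% (18.1 to 22.8), and in lymph node 32.1% (29.2 to 35.2) and 35.9% (32.4 to 39.5).

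The remaining subunits of the synthase were not alike. ATP5H, subunit d of the peripheral stalk, had a log2 ratio of -0.68 in thymus, with 1697 and 1062 FPKM, and of -0.0849 and 0.0855 in lymph node and spleen. ATP5I, subunit e, stood at 772 and 559.7 FPKM in lymph node, 749 and 823 FPKM in spleen and 1065 and 1095 FPKM in thymus, and was the only complex V gene not lower in the knockout thymus. ATP5J2, subunit f, had log2 ratios of -0.31, -0.11 and -0.46 in lymph node, spleen and thymus. ATP5E, the epsilon subunit of the central stalk, stood at 93.7 and 92.1 FPKM in lymph node, 94.5 and 87.2 FPKM in spleen and 104 and 90.9 FPKM in thymus, with fragment ratios of 0.986 (0.872 to 1.12), 0.927 (0.823 to 1.05) and 0.874 (0.776 to 0.983). Its gene overlaps TUBB1, a tubulin gene of platelets, in RefSeq. NDUFA8, NDUFS3, COX6C, ATP5A1, ATP5H and ATP5L also overlap another RefSeq gene or pseudogene, and without a known strand setting their fragments cannot be told apart from those of that gene.

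NDUFAF3, needed to build complex I but no part of it, differed in direction from most subunits. It stood at 51.8 and 67.2 FPKM in lymph node, 43.7 and 72.1 FPKM in spleen and 70.9 and 88.9 FPKM in thymus. The knockout library was the higher of each pair, with fragment ratios of 1.31 (0.976 to 1.77), 1.68 (1.25 to 2.27) and 1.25 (0.977 to 1.61), and the spleen interval alone excludes equality.

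**Figure D5:**
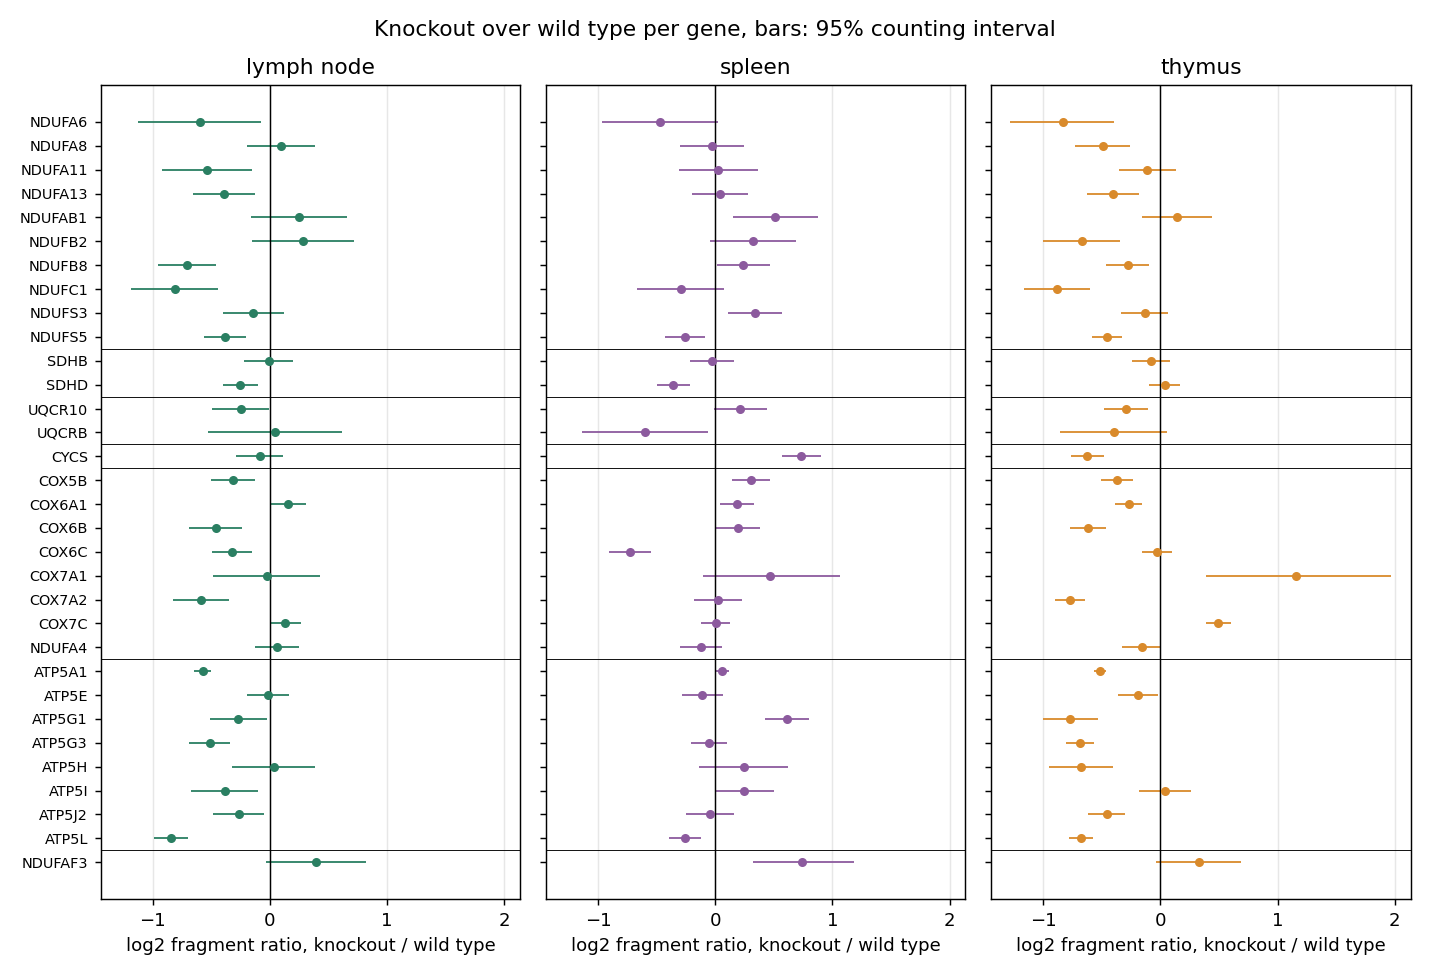
Log2 fragment ratio of knockout over wild type (x axis) for the 32 members measured in all 3 tissues (y axis, ordered by complex as in the plot of FPKM levels), with bars for the 95% counting interval and 1 panel per tissue. Complex V genes lie mostly left of 0 in lymph node and thymus, and CYCS lies right of 0 in spleen and left of 0 in thymus.

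Of the 32 members, 12 had a log2 ratio below 0 in all 3 tissues and 2, NDUFAB1 and NDUFAF3, above 0 in all 3. A further 10, among them CYCS, ATP5A1, ATP5G1 and COX5B, were below 0 in lymph node and thymus and above 0 in spleen. Many of these ratios lie within counting error of equality. The 12 came from every complex and included NDUFA6, NDUFC1 and NDUFS5, SDHB, UQCRB, COX6C and COX7A2, and ATP5G3 and ATP5L.

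Other genes of energy metabolism show how the chain compares with the pathways that feed it. Of all measured genes 15.3% were called higher and 10.3% lower in lymph node. The shares were 8.88% and 10% in spleen and 15.2% and 10.9% in thymus. With so few genes per list, the counts called say little about a pathway beside these shares. The list of the citric acid cycle and pyruvate dehydrogenase had 2 of 14 higher and 0 lower (median 0.012) in lymph node, 3 of 14 higher and 0 lower (median 0.12) in spleen and 2 of 14 higher and 1 lower (median -0.29) in thymus. PDK4, the kinase that shuts pyruvate dehydrogenase, was higher in each knockout library, at 44.5 and 1239 FPKM in lymph node, 120.0 and 297 FPKM in spleen and 3.48 and 299.6 FPKM in thymus. PC, which makes oxaloacetate from pyruvate, stood at 6.91 and 443 FPKM in lymph node, 2.67 and 10.7 FPKM in spleen and 23.6 and 82.1 FPKM in thymus. IDH2, a mitochondrial isocitrate dehydrogenase, was called lower in thymus, at 490.0 and 210.4 FPKM on 2058 and 905 fragments. In spleen it was called higher, at 34.3 and 105 FPKM on only 9 and 35 fragments. A fragment was thus worth far more FPKM in spleen, and the directions in these organs are not safely comparable.

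Glycolysis genes had 2 of 11 higher and 0 lower (median -0.0256) in lymph node, 1 of 11 higher and 1 lower (median 0.00736) in spleen and 0 of 11 higher and 2 lower (median -0.49) in thymus, where ENO3 and ALDOC were the genes called lower (-1.46 and -1.10). In lymph node ALDOC and the hexokinase HK2 were called higher (2.39 and 2.21). Genes of fatty acid oxidation, whose products enter the chain as NADH and reduced flavoprotein, had 1 of 12 higher and 0 lower (median 0.31) in lymph node, 0 of 12 higher and 0 lower (median 0.0402) in spleen and 3 of 12 higher and 0 lower (median 0.22) in thymus. CPT1A, which admits fatty acids to mitochondria, stood at 51.3 and 166 FPKM in lymph node, 165 and 208 FPKM in spleen and 124 and 394 FPKM in thymus. HADH and ECI1 were the other genes called in thymus (1.22 and 1.17). In lymph node and thymus the fatty acid oxidation median thus lay above 0 and that of the respiratory chain below 0. The difference between the lists was not tested.

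Carriers and uncoupling proteins had 1 of 5 higher and 0 lower (median 0.50) in lymph node, 0 of 4 higher and 0 lower (median 0.29) in spleen and 2 of 5 higher and 0 lower (median -0.27) in thymus. UCP3, an uncoupling protein, had 1 and 98 fragments in lymph node and 5 and 25 in thymus, and UCP2 stood at 26 and 55.7 FPKM in thymus. Regulators of mitochondrial biogenesis had 0 of 8 higher and 1 lower (median 0.079) in lymph node, with MYC at 125 and 44.3 FPKM, 0 of 9 higher and 1 lower (median -0.27) in spleen and 2 of 9 higher and 0 lower (median -0.0454) in thymus, with PPARA at 5.05 and 20 FPKM. The calls of PRKAA2 in spleen and thymus rest on 1 fragment each. Import, fission, fusion and chaperone genes had no call in any tissue, and their medians were -0.13, 0.32 and -0.46 over 7 measured genes. Assembly factors outside the symbol rule had none either, with medians of -0.0862, 0.0915 and -0.13. The redox defence list had 2 of 9 higher and 0 lower (median 0.0217) in lymph node, 2 of 9 higher and 0 lower (median 0.30) in spleen and 0 of 9 higher and 0 lower (median -0.00649) in thymus. SOD2, which removes superoxide made by the chain, stood at 120.1 and 859 FPKM in lymph node, 113 and 793 FPKM in spleen and 156 and 287 FPKM in thymus. CAT in lymph node and GPX1 in spleen were the other genes called (1.90 and 1.36).

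The libraries also differed in markers of cell types. Of all measured genes 15.3% were called higher and 10.3% lower in lymph node. The shares were 8.88% and 10% in spleen and 15.2% and 10.9% in thymus. Genes of dividing cells were called lower in 8 of 9 measured cases in lymph node, 0 in spleen and 1 in thymus. Their medians were -2.49, -0.30 and -0.54, and 9, 8 and 9 of the 9 were lower by any amount. The sums were 787 and 226 FPKM in lymph node, 564 and 466 FPKM in spleen and 4504 and 2722 FPKM in thymus. TYMS was at 0 in all libraries. The T-cell list was called lower in 8, 5 and 4 of 8 measured genes in lymph node, spleen and thymus, and the B-cell list in 4, 4 and 2 of 4. B-cell sums were 1493 and 4.50 FPKM in lymph node and 496 and 6.63 FPKM in spleen. Thymocyte genes were called higher and lower in 2 and 2 of 5 in lymph node, 0 and 3 of 4 in spleen and 2 and 3 of 6 in thymus. Neutrophil genes were called higher in 3, 4 and 3 of 4 cases in those tissues, and 1 was lower in lymph node. In lymph node 5 of 6 smooth muscle genes were called higher and 2 of 8 striated muscle genes lower, the latter on 2 and 0 fragments each. In spleen 1 of 6 smooth muscle genes was called lower, 1 of 6 striated muscle genes higher and 1 lower, and of 7 adipocyte genes 1 higher and 2 lower. Among these spleen calls TNNC2 rests on 0 and 4 fragments, CIDEC on 8 and 1 and DGAT2 on 1 and 0. Macrophage genes were called higher in 3, 2 and 5 of 7 cases and lower in 0, 2 and 1. HBB, the red-cell globin, stood at 376 and 6738 FPKM in lymph node, 41406 and 18970.2 FPKM in spleen and 912 and 4782 FPKM in thymus, and HBE1, the other listed gene of that kind, had at most 6 fragments in a library of lymph node or thymus. The thymic epithelial chemokine CCL25 stood at 1423 and 414 FPKM in thymus, called lower, and the second gene of its list was not called. The part of these cell types in the respiratory chain values was not tested.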

How the data were processed

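The kits were RNeasy Mini for total RNA and a TruSeq stranded one for libraries, per the labels' protocols. FastQC 0.11.9, Trimmomatic 0.39, STAR 2.7.9a, Cufflinks 2.2.1 and the build Sscrofa11.1 are named in the submitters' processing notes, without role or order. The annotation, the strand setting and the handling of shared fragments were not given in the sources used here. Respiratory chain genes have processed pseudogenes in mammals, and 7 members overlap another RefSeq gene, so their values are uncertain to that extent. FPKM values were deposited by the authors, separately for each tissue. The deposited tables of estimated counts hold fragments multiplied by 1 factor per library. Divided by the value of 1 fragment, estimated from the low counts, 99 to 99.5% were whole within 0.02, and they were rounded to whole fragments.

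Members and gene lists were chosen with earlier results of these data known. With 1 library per group nothing was tested. The 9 pathway and 12 marker lists were matched by symbol. Members were named with all values where they passed the threshold, were the highest or lowest of their complex in a tissue with at least 5 FPKM, were among the 3 with the highest summed FPKM or belonged to an isoform family, and the values of other members were added after they were seen. Of the lists up to 3 called genes per tissue may be named. RAG2, RAG-1 and HBB were also named, and their levels do not check the genotype labels. The ratio and interval calculations were tested on simulated counts. Alternatives were counts scaled to their total, with edgeR 4.0.16 TMM factors or with DESeq2 1.42.0 size factors, pseudocounts of 0.1 and 5 FPKM, no minimum or 5 FPKM, 1.5-fold as the threshold, log2 ratios centred on their median, the counting interval and subunits only. A minimum of 10 fragments was added after the data were seen. Software was R 4.3.3, scipy 1.17.1, Python 3.11.15, pandas 2.3.3, matplotlib 3.10.9 and numpy 2.4.6.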

Additional observations from a re-analysis of the deposited data

Results flagged for a closer look

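CYCS, the gene of cytochrome c, went opposite ways in 2 organs, each by at least 1.5-fold and with a counting interval that excluded equal levels. Its log2 ratio of knockout over wild type was 0.72 in spleen and -0.62 in thymus, from 1 library per genotype in each, and the difference between the organs was not tested. ATP5G1 came close, with log2 ratios of 0.58 in spleen and -0.77 in thymus. Its spleen difference was just under 1.5-fold by FPKM and just over it by fragments, at a ratio of 1.53 (1.35 to 1.74).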

How the results depend on the processing

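With 1 library per group no replicate could be left out. No paired analysis was possible because, within a tissue, each genotype holds 1 library and the labels carry no replicate numbers. A fit over all 6 libraries with tissue as a block was not run, as it would treat tissues as replicates. The median log2 ratio of the members ranged over the alternatives from -0.29 to -0.25 in lymph node, from -0.0215 to 0.0289 in spleen and from -0.39 to -0.26 in thymus, so its sign held in lymph node and thymus and turned in spleen. At 1.5-fold in place of 2-fold, the members lower numbered 5 in lymph node, 3 in spleen and 10 in thymus, and 2 were higher in spleen. The 1 lower member of spleen, COX8H on 1 fragment, was lost (0 left) with a pseudocount of 5 FPKM, a minimum of 5 FPKM, the counting interval and a minimum of 10 fragments. With counts scaled to their total the ratio of summed fragments was 0.996 in spleen and 0.841 in thymus. Under that scaling the thymus median was 0.12 for all genes with at least 10 fragments in both libraries and -0.26 for the members. A scaling multiplies every fragment ratio of a tissue by the same factor. The distance between these medians could therefore not change and was not checked by it. Of 402 recomputed log2 ratios of named members, 5 moved beyond their counting interval, all in thymus under that scaling and all without a change of sign. With at most 1 fragment in a library, NDUFA4L2, NDUFC2 and COX8H have no usable ratio. Whether this came from their expression or from the gene models was not tested. Low counts limit COX7A1, UQCRB and NDUFA6 most among the members measured in every tissue. The spread between animals is not known for any value.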

Other observations

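Across the 32 members measured in every tissue, the log2 ratios of lymph node and thymus were the most alike, with a Spearman coefficient of 0.485 and 22 members below 0 in both. The coefficient was 0.298 for lymph node and spleen and 0.156 for spleen and thymus. These describe genes within 6 libraries, which share the gene models and the way FPKM were calculated, and genes are not replicates.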
